A study of Mus musculus with 2 samples.

Results

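The homeobox genes outside the Hox clusters were followed in mouse retina, with 56 genes listed from 9 homeodomain classes. Members were found as the non-control probes whose transcript accession belongs to a listed gene in RefSeq, which gave 77 probes on 105 spots, and every one of the 56 genes had at least 1 probe. They are 56 of the 21367 named genes with a probe on the array. The list was divided by whether the scanner called a gene well above background on the wild-type-labelled array: 48 members were above it and 8 were not.

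The series holds 2 samples of total RNA from dissected retinas at postnatal day 12, 1 labelled wild type and 1 labelled Samd7 KO. Each was hybridised to 1 single-colour (Cy3) Agilent array. Which strain and which part of Samd7 was deleted, and how many animals were pooled, are not given in the sources used here. With 1 array a group there is no test, and no spread between animals stands behind any difference.

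Homeobox genes encode transcription factors that bind DNA through a homeodomain, a small helical fold shared by all classes. In the eye a group of them, among them Pax6, Six3, Six6 and Lhx2, sets up the retinal field, and others, such as Isl1, Lhx1, Prox1, Vsx1 and the Onecut genes, are kept on in particular retinal neurons. Many homeobox genes of other body regions, such as those of the midbrain, limb or gut, are held silent in the retina by Polycomb complexes. Samd7 encodes a sterile alpha motif protein of photoreceptors that has been described as part of Polycomb complex 1.

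Signals are given as log2 of the processed intensity relative to the 75th percentile of the array, which stood at an intensity of 574 for the wild-type label and 554 for the knockout label. Each difference is the knockout-labelled minus the wild-type-labelled value on that log2 scale. Levels of different genes come from different probes and are not set against each other. The spread that a difference carries from spot to spot, over 317 probes with repeated spots, had an SD of 0.05 for signals reaching 0, 0.09 between -2 and 0, 0.19 between -4 and -2, and 0.37 for dimmer ones. Samd7 itself read 4.68 and 6.47, in that order of arrays, a difference of 1.78, so its only named probe goes against the label unless it lies outside the deleted part. Every direction below therefore rests on the labels alone. Defining markers of rods (6 of 6), cones (6 of 6), bipolar (6 of 6), amacrine (6 of 6) and ganglion cells (6 of 6) and of Müller glia (5 of 5) were above background on both arrays, and of the 4 measured horizontal cell markers only Gja10 was on neither.

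En2 was the single member at least 2-fold apart, and it was far higher on the knockout-labelled array. En2 encodes an Engrailed-class repressor of the midbrain and hindbrain. Its probe was printed on 10 spots, which read from 100.2 to 134 intensity units (median 113) with the wild-type-labelled sample and from 4244 to 5068 (median 4659) with the knockout-labelled one. The ranges of the 10 spots did not overlap, and all 10 were above background on both arrays. On the relative log2 scale the level went from -2.35 to 3.06, a difference of 5.41 ± 0.14 (SD over 10 spots of the same probe), or 42.5-fold. The 10 spots measure the same 2 RNA samples, so their SD is that of the spotting and reading only. En2 was the third-highest of 15930 named genes above background on at least 1 array, after Insm2 (6.22) and A930009A15Rik (6.06).

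Its paralogue En1, which acts in the same midbrain and hindbrain territory, stayed dark. The 10 spots of the En1 probe read from 2.91 to 4.65 for the wild-type label and from 2.52 to 3.25 for the knockout label. None of the 10 was above background on either array, where the lowest signals called above it were 13.7 and 11.8, respectively. Isl1, a LIM factor of ganglion cells, ON bipolar cells and cholinergic amacrine cells, was the other member printed 10 times. Its spots read from 3993 to 4621 and from 3681 to 4076. Its difference was -0.14 ± 0.06 (SD over 10 spots), with 10 of 10 spots lower on the knockout-labelled array.

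**Figure D1:**
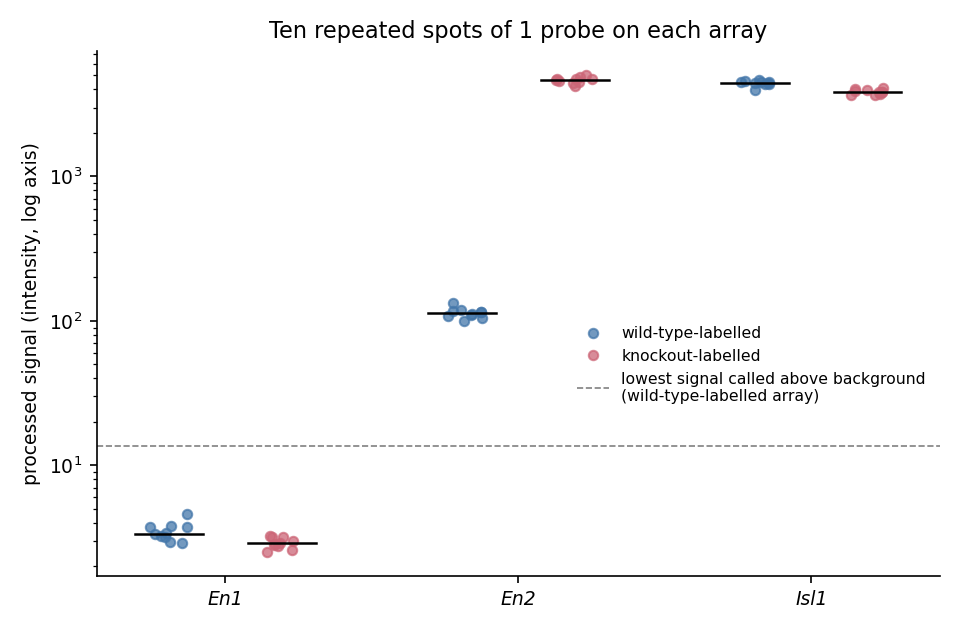
Processed signal (intensity, log axis) of each of the 10 spots of the En1, En2 and Isl1 probes on the 2 arrays; bars are medians and the dashed line is the lowest signal called above background on the wild-type-labelled array (13.7). En2 lies near 113 on one array and near 4659 on the other, while En1 lies under the line on both.

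Genes that accompany En2 at the midbrain-hindbrain boundary were near level or lower. Of 11 listed genes 10 had a probe, 7 were above background, and 1 of those 7 was higher and 6 lower on the knockout-labelled array, with a median of -0.12 and none 2-fold apart. The signalling genes Wnt1 (-0.03), Fgf18 (-0.05) and Fgf8 (-0.53) and the paired box gene Pax8 (0.11) span that range, and Pax5, Fgf17 and Otx1 were above background on neither array. Wnt1 and Fgf18 lay within their spot-to-spot SD of 0.09, and Pax8 and Lmx1b (-0.12) within 0.19. Fgf8, Spry1 (-0.19) and Il17rd (-0.27) were lower by more than their SD. The share of all named genes above background on both arrays that were higher was 41.9%. Gbx2, a member that marks the anterior hindbrain, read -2.85 and -2.77. Of 7 cerebellar marker genes 4 were above background, between -0.06 and 0.13, and Gabra6, Cbln3 and Atoh1 were above it on neither array.

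Against the whole array the members differed little. Of the 48 above background on at least 1 array, 1 (En2) was at least 2-fold higher and 0 were at least 2-fold lower on the knockout-labelled array. Over all 15930 named genes the shares were 1.58% and 1.37%, so a single member is near what the array gives. Among the 46 above background on both arrays the counts were again 1 and 0, where all named genes gave 1.05% and 0.616%. At 1.5-fold En2 was still the only member, whereas 2.96% of named genes were that much higher and 3.2% that much lower, 6.16% in all. The median difference of the 46 members above background on both arrays was 0.02, and 40 of them (87.0%) lay within 0.25 of 0. For all 15256 named genes above background on both arrays the median was -0.02 and 84.0% lay within 0.25. At 4-fold, En2 was one of 79 genes higher, 0.496% of those counted.

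**Figure D2:**
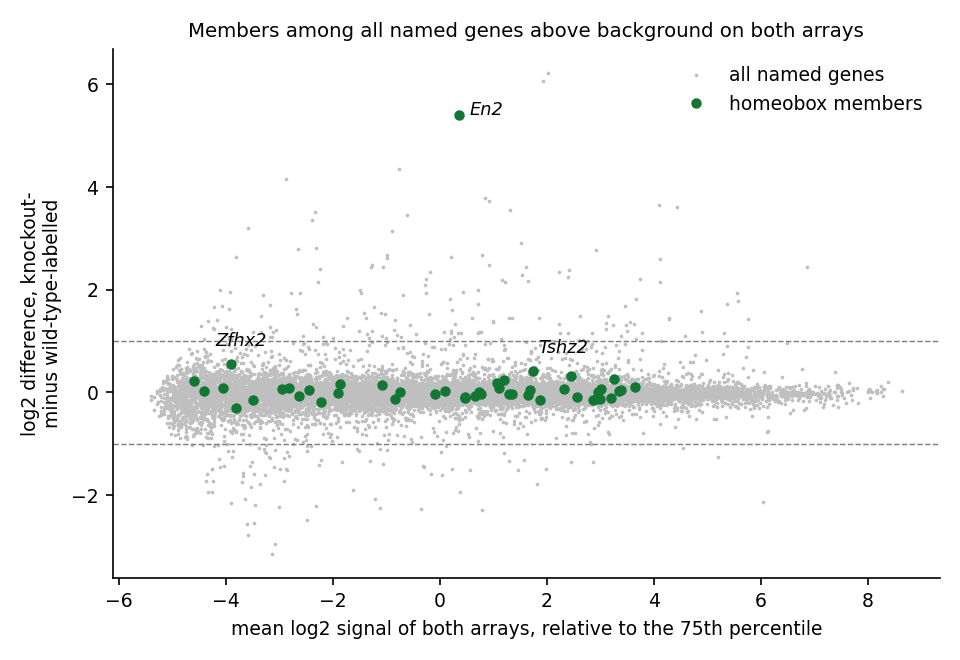
Log2 difference against mean log2 signal for every named gene above background on both arrays (grey) and for the 46 homeobox members among them (green); dashed lines mark 2-fold. En2 stands at 5.41, and the other 45 members lie between -0.30 and 0.55.

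Genes of the retinal field and of progenitors were bright on both arrays and near level. Pax6, which acts in progenitors and later in amacrine and ganglion cells, read 2.62 and 2.52, a difference of -0.10, and its dimmer probe gave -0.14. Six3 read 2.95 and 2.96, and Lhx2, also kept on in Müller glia, 3.37 and 3.42. Six6 read 3.12 and 3.38, wild-type-labelled array first, and its difference of 0.26 was larger than the spot-to-spot SD of 0.05. Meis1 (0.10) and Meis2 (0.02), TALE partners of other homeodomain proteins, started from wild-type-labelled readings of 3.60 and 3.33. These are values of whole retina, in which fewer cells of a type and less RNA per cell cannot be told apart.

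The lens also makes Pax6, Six3 and Prox1, and lens markers were higher on the knockout-labelled array. All 6 lens markers were higher, 4 of them at least 2-fold (the crystallin genes Crybb2, Cryaa and Crybb3 at 2.80, 2.25 and 1.22, and Mip), and Bfsp1 was the lowest at 0.64. Mip and Lim2 were not above background in the wild-type-labelled sample, so their differences are bounds. The summed signal of the 6 went from 315% to 1345% of the array's 75th percentile, or from 1.65 to 3.75 in log2. Most of that sum was Cryaa, which alone read 1.28 and 3.53. Over the same arrays Pax6 and Prox1 were at -0.10 and Six3 at 0.01. Of 5 pigment epithelium markers 4 were lower, the lowest Pmel (-0.81), and their summed signal went from 1574% to 1042%. All 6 rod markers were lower, with a median of -0.18, and all 5 microglia markers, with a median of -0.16. Beside these lists, 41.9% of all named genes above background on both arrays were higher, and 42.2% of those above it on at least 1. Of 6 cone markers 3 were higher and 3 lower, with a median of 0.02. Among them the short-wave opsin gene Opn1sw was 4.27-fold higher (-1.31 to 0.78), and Arr3, the cone arrestin, was at 0.32. The other cone opsin gene, Opn1mw, was lower at -0.17, and Gnat2 (0.04), Pde6h (-0.01) and Pde6c (-0.04) lay within the spot-to-spot SD of 0.05. The part of these cells in the members' differences was not tested.

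LIM class genes were divided, with 3 of the 8 above background higher and 5 lower, a split that each normalization and the mean over probes also gave. Over all named genes above background on both arrays, 41.9% were higher. Lhx3 (-0.10) and Lhx4 (-0.13), known from subsets of bipolar cells, went from 3.25 to 3.15 and from 2.98 to 2.85. Isl2, of a subset of ganglion cells, read 1.07 and 1.15. Lhx6, best known from forebrain interneurons, was the highest of the class at 0.32, from 2.29 to 2.61. That value came from 1 of its 3 probes, and the other 2 were above background on neither array. Lhx5 and Lhx8, both forebrain genes, were above background on neither. LIM homeodomain proteins work with Ldb adaptors. Of 9 LIM cofactor genes, all above background, 2 were higher and 7 lower, beside the same 41.9% higher over all named genes. Of the 7, Lmo4 (-0.02) and Ssbp3 (-0.04) lay within their SD of 0.05 and Lmo3 (-0.18) within 0.19. The rest of the 7 were lower by more than their SD. Ssbp4, a partner of the Ldb adaptors, was 2.47-fold higher (2.60 to 3.90), Ldb1 was at 0.30, and the LIM-only gene Lmo1 was the lowest at -0.33.

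Genes of horizontal cells were level or slightly lower. Lhx1, which directs these cells, read -2.12 and -2.30, a difference of -0.18 against an SD of 0.19. Prox1, also present in AII amacrine and bipolar cells, read 0.52 and 0.42. Onecut1 (-0.15), Onecut2 (-0.02) and Onecut3 (-0.01), CUT class factors of horizontal and ganglion cells, each lay within their SD. The 3 measured horizontal markers above background were between -0.03 and 0.05. In the CUT class as a whole, 5 of 6 were lower, but 3 of 6 with median centring, and Cux1 was at -0.12 (3 probes between -0.14 and -0.01). Of all 15256 named genes above background on both arrays, 8870 were lower. Cux2, the one CUT gene that was higher, was at 0.06 against an SD of 0.19. Satb1, found in some ganglion cells, read 1.68 and 1.64.

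Of cone bipolar and amacrine genes, Vsx1 read 2.29 and 2.36, and Lhx9, of amacrine cells, -0.06 and -0.10 in its brightest probe. The 3 Lhx9 probes gave -0.71, -0.04 and 0.27, all above background on both arrays, so the gene has no single direction here. Barhl2, an amacrine and ganglion cell factor, was above background on neither array, with 2.99 and 8.84 intensity units. Bipolar markers lay between -0.03 and 0.12, and amacrine markers between -0.06 and 0.16.

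Six2, Six3, Six4, Six5 and Six6, whose family patterns eye, kidney and muscle, were all above background and higher by 0.004 to 0.26, though 4 of 5 under normexp background correction and with the mean over probes. Six5 was at 0.17 and Six4 at 0.03. Six2, Six3 and Six4 lay within their spot-to-spot SD of 0.09, 0.05 and 0.37, so they have no direction here. Among named genes above background on both arrays, 41.9% were higher. Six2, a factor of kidney progenitors, gave opposed readings. Its brightest probe read -0.75 and -0.74. Its dimmer probe read -3.56 with the wild-type-labelled sample and -5.59, not well above background, with the other, which is at least 4-fold lower. Of the 7 genes whose products partner this family, 5 were higher, among them the Eya phosphatase gene Eya3 (0.45), and 2 lower, Eya1 (-0.29) and Dach2 (-0.26). Of the 5, Eya4 was above background on the knockout-labelled array only, so it could only be counted as higher. Dach1 and Sobp, both at 0.01, lay within the spot-to-spot SD of 0.05. Among all named genes above background on at least 1 array, 42.2% were higher.

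TALE class genes encode partners that bind DNA with Hox and other homeodomain proteins, and all 10 were above background on both arrays. On the knockout-labelled array 8 of 10 were higher, 9 with median centring and 7 under normexp, with a median of 0.06. Pbx2 was the highest, from 1.09 to 1.33, a difference of 0.25, followed by Tgif2 (0.22, against an SD of 0.37, with 0.46 in its other probe above background on both arrays). Pknox1 gave 0.18 and 0.06 in its 2 probes, and Pbx3 0.06 and -0.07. Pbx4 (0.06), Pknox2 (0.04) and Meis3 (-0.03) lay within their SD. Tgif1, a corepressor in TGF-beta signalling, was the lowest at -0.13. Among named genes above background on both arrays, 41.9% were higher.

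**Figure D3:**
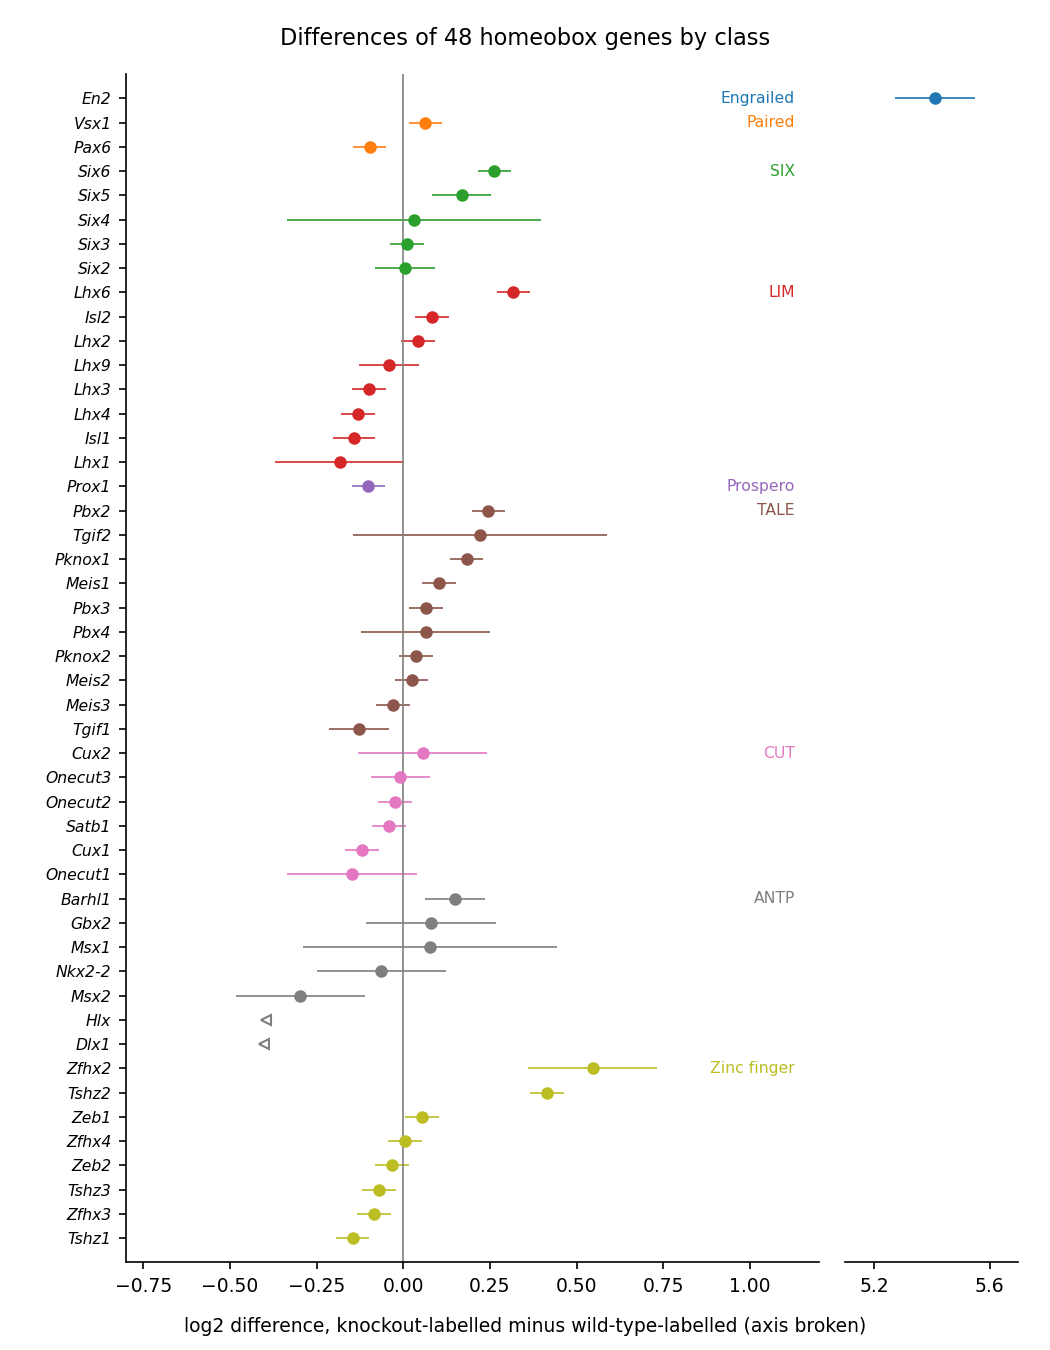
Log2 difference of the 48 members above background on the wild-type-labelled array, grouped by class on a broken axis. Filled points were measured on both arrays and carry the spot-to-spot SD at their signal (for En2 and Isl1 the SD over their 10 spots), and open triangles are bounds for Dlx1 and Hlx, which were above background on the wild-type-labelled array only.

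Zinc-finger homeobox genes included Zfhx2 and Tshz2, the members next after En2 in the brightest probe measured on both arrays. Under normexp Zfhx2 was at 0.17, below Lhx6 (0.29) and Six6 (0.23). Zfhx2 read -4.16 and -3.62, a difference of 0.55 against an SD of 0.19 at that signal, but its other probe was above background on the wild-type-labelled array only and was at least 0.19 lower on the knockout-labelled array. Tshz2 read 1.55 and 1.96, a difference of 0.42, and its dimmer probe gave 0.14. Its relatives Tshz1 (-0.15) and Tshz3 (-0.07) were lower. Zeb1 and Zeb2, repressors with a homeodomain-like stretch, were at 0.05 and -0.03, and the dimmer Zeb2 probe gave -0.36. Zfhx3 was at -0.08 and Zfhx4 at 0.004.

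**Figure D4:**
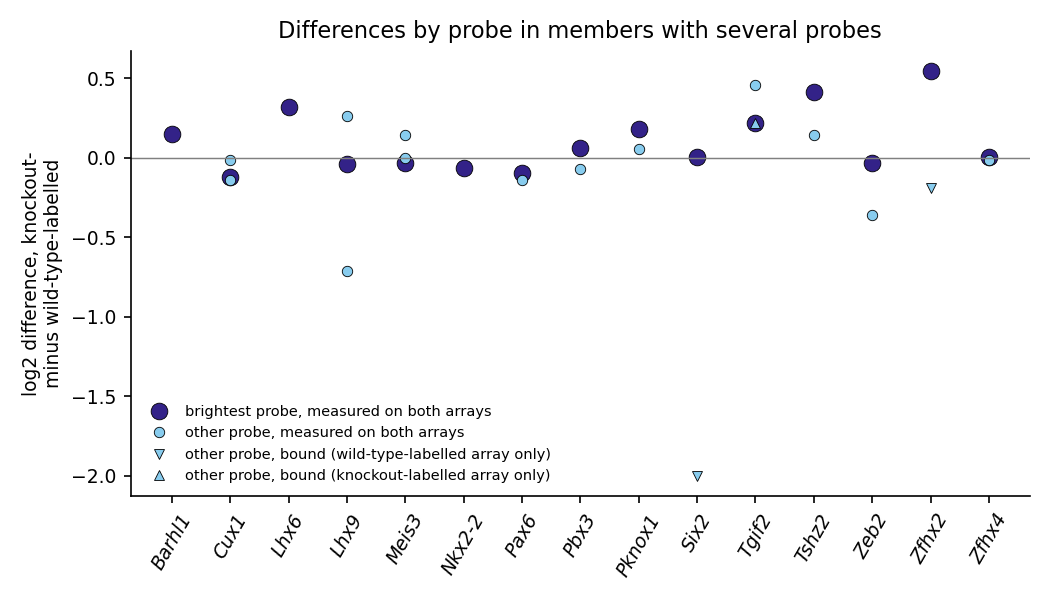
Log2 difference of every probe above background on at least 1 array, for the 15 members with several probes and at least 1 above background. Large points are the brightest probe of the gene and small points the others; Six2 and Lhx9 have the widest gaps, with Lhx9 between -0.71 and 0.27.

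Of further genes known mainly from other regions, Barhl1, of hair cells and cerebellar granule cells, read -1.15 in the wild-type-labelled sample and was at 0.15. Msx1 (0.08) and Msx2 (-0.30), factors of limb and face, and Nkx2-2 (-0.06), of the ventral spinal cord and pancreas, were above background on both. Under normexp Barhl1 was at 0.06, Msx1 at 0.01, Msx2 at -0.04 and Nkx2-2 at 0.02. The values of Barhl1 and Nkx2-2 came from 1 of their 2 probes, and the other was above background on neither array. Dlx1 and Hlx were above it on the wild-type-labelled array only, close to the lowest signal that passes, and were at least 1.32-fold and 1.31-fold lower by bounds. Over all named genes above background on that array, 2.03% were above it on no other, against these 2 of 48. The 8 members not above background on the wild-type-labelled array were En1, Pax2, Lhx5, Lhx8, Dlx2, Dlx5, Barhl2 and Nkx6-1. None of the 8 was above background on the knockout-labelled array, where 6.18% of such named genes were.

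Promoters of the members were rich in CpG, a C followed by a G on the same strand. CpG marks the islands on which Polycomb complexes often sit. RefSeq promoters (GRCm38.p6) were matched for 45 of the 56 members, 67 promoters in all since some genes have several, and En2 was not among them. Over the 250 bases before the start the members' promoters held a median of 15 CpG, against 6 for all 32851 promoters. Those promoters belong to 27025 genes. They were not limited to genes with a probe or matched to the members by kind of gene. The ratio of observed to expected CpG reached 0.6 in 44 of 67 (65.7%) against 34.0% of all promoters. It did so in 38 of 59 promoters (64.4%), from 39 genes, of members above background on the wild-type-labelled array. For members not above it there, 6 of 8 promoters did, and those 8 promoters came from 6 genes. En1, not above background on either array, and Six6, above it on both, are shown as examples with 19 and 17 CpG. The En1 stretch lies at chr1:120602237-120602486 and the Six6 stretch at chr12:72939632-72939881, both on the plus strand just before the annotated start, with each CpG in capitals.
En1: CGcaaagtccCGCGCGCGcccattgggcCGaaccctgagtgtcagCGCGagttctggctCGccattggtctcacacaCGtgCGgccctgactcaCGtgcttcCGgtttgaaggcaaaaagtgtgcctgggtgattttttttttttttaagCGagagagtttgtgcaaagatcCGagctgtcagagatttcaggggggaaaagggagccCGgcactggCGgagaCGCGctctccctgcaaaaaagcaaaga
Six6: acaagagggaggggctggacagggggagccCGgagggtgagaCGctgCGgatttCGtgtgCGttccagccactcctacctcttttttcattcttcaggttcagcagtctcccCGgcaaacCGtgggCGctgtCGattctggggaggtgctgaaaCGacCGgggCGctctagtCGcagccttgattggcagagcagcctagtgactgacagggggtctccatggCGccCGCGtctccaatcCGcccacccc
The homeodomain core TAATTA, which reads the same on both strands, was in 1 of the 67 promoters (that of Msx2), against 4.84% of all. The Otx and Crx type motif TAATCC, searched on both strands, was in 3 (those of Barhl1, Isl1 and Tgif1), against 6.25% of all. The motifs share their first letters but cannot be the same match.

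Of 91 other homeobox genes outside the Hox clusters, 87 had a probe and 41 were above background, 15 of them higher and 26 lower, with a median of -0.06, where the 48 members gave 26 higher and 22 lower. Over all named genes above background on at least 1 array, 42.2% were higher. At 2-fold 1 of the 41 was higher and 2 were lower, against 1.58% and 1.37% of all named genes. The photoreceptor regulators Crx (-0.03), Otx2 (0.06) and Rax (0.17) were near level. Hopx, which encodes a homeodomain protein that does not bind DNA by itself, was the only one at least 2-fold higher, at 1.24 in one probe and 1.19 in the other. Tlx2 and Lbx1 were lower by bounds of -1.51 and -1.05, which normexp brought to -0.42 and -0.40. Genes of the Groucho family, which includes corepressors recruited by Engrailed, Six3 and Six6, were higher in 5 of 6 cases, where 41.9% of named genes above background on both arrays were. Tle6 (0.01) and the lower gene Tle4 (-0.13) lay within their spot-to-spot SD, and Tle2, Tle3 and Tle5 were at 0.13, 0.17 and 0.11. Tle1 was the highest of the family, at 0.81 in its brightest probe and between 0.25 and 0.83 over its 4 probes.

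**Figure D5:**
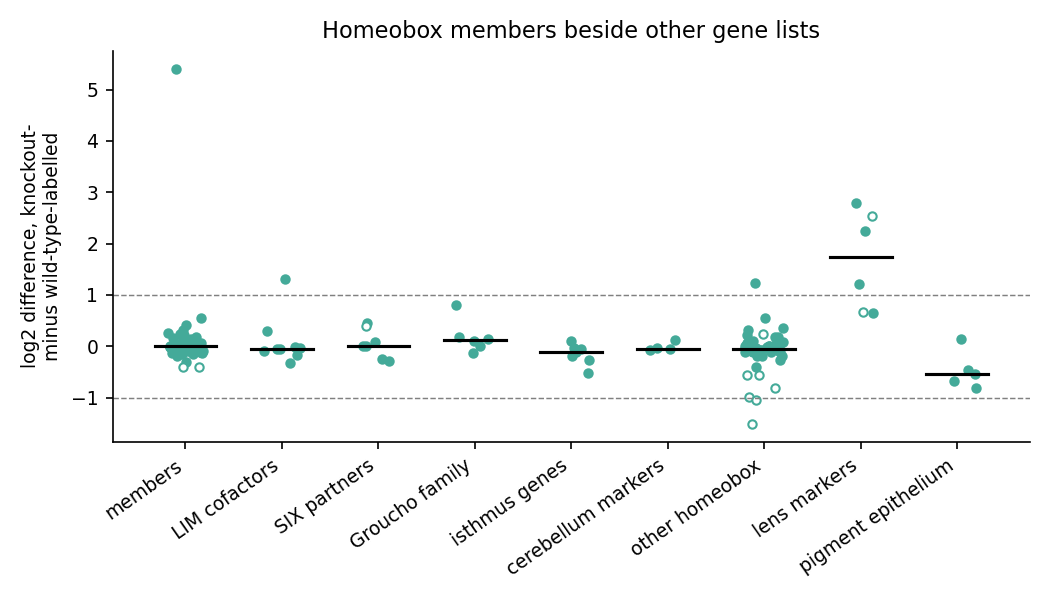
Log2 difference of each gene above background on at least 1 array for the homeobox members and 8 other lists; open points are bounds, black bars are medians and dashed lines mark 2-fold. The medians of the members and of the cofactor, isthmus and cerebellum lists lie near 0, and that of the lens markers at 1.74.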

How the data were processed

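Total RNA of 2 mouse retina samples was measured on 1-colour arrays, 1 array a group, both on 1 slide. Processed intensity values come, per the file headers, from Agilent Feature Extraction 11.5.1.1 (protocol GE1_1105_Oct12), and the array design was built on mm9. The authors' value table holds the same intensities times a constant per array, whose rule is not given, and served as an alternative. The software's flags per spot, other values deposited in the scanner files, gave the background calls.

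Flagged non-control spots were left out (119 and 163 of 59305), and 60.3% and 60.9% of spots were well above background. The log2 of each processed signal, less the 75th percentile of its array, was averaged over a probe's spots. A probe was above background when most of its spots were. The brightest probe stood for a gene. Probes were named by unversioned transcript accession in RefSeq (GRCm38.p6). A gene above background on 1 array only has a bound, against the higher of the other array's lowest signal called above background and its own. Spot noise is not allowed for in such a bound. Genes were counted at 2-fold, and no test was possible. The counting was tested on simulated signals with known fold changes and spot-to-spot noise only. Spread between animals was not simulated, nor were genes not above background on the wild-type-labelled array. Alternatives were normexp (offset 50; limma 3.58.1), quantile, loess and median scaling, filters on dim genes, other folds and the mean over probes. Members and lists were chosen with earlier results of these data known. Every member is accounted for; the rule also named the 3 neighbours on each side of En2 and, from other lists, genes at least 2-fold apart and the highest and lowest. The last were given for some lists only, and further examples were chosen after their values were seen.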

Additional observations from a re-analysis of the deposited data

How the results depend on the processing

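En2 was the only member at least 2-fold higher under every scaling, and its difference ranged from 4.69 (25.8-fold, normexp) to 5.44. With no filter on dim genes 2 members were higher (En2 and Barhl2) and 3 lower (Dlx1, Dlx5 and Hlx). Among genes in the brighter part, at or over the median of mean signal, 0 were higher, since the low wild-type-labelled reading leaves En2 under it. With the mean over probes 1 member, Six2, was lower (-1.02), through its dimmer probe. Against 251 higher and 218 lower named genes, normexp on median signals gave 120 and 45, genes above background on both arrays 160 and 94, no filter 579 and 671, and the brighter genes alone 69 and 14. At 1.5-fold the counts were 471 and 510, and at 4-fold 79 and 58. The members' median stayed between -0.002 (all 56 members, no filter) and 0.04. Of 276 recomputed differences of single members 19 moved by over the spot-to-spot SD, 11 of them under normexp and 8 with the mean over probes, and 12, in 10 genes, took the other sign; of those 12 the Six2 value of -1.02 with the mean over probes was at least 2-fold. Zfhx2 was at 0.17 under normexp and 0.18 with the mean over probes. Dim signals limit these values: below -4 the spot-to-spot SD was 0.37. No paired analysis was possible because the groups hold 1 array apiece.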

Other observations

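The genes beside En2 in the RefSeq gene order did not share its difference. Among those with a named probe, Insig1, a regulator of sterol synthesis, and Rbm33, the nearest on either side, read -1.46 and 1.78 on the wild-type-labelled array and were at -0.14 and -0.002. Farther out, Paxip1 was at -0.11, the morphogen gene Shh at -0.13 and Rnf32 at -0.25, and the serotonin receptor gene Htr5a was above background on neither array.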
